A study of Mus musculus with 7 samples.

Results

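RNA levels of 8 mouse S100 genes were described in 7 flank tumours: S100a1, S100a4, S100a6, S100a10, S100a11, S100a13, S100a14 and S100a16. These are the named epithelial and stromal S100 genes, each found once by symbol among the 47643 gene rows of the deposited table, out of 17 S100 protein genes there. PEGPH20 is a hyaluronidase coupled to polyethylene glycol, an enzyme that digests hyaluronan in the extracellular matrix, and it was given to 4 of the mice (replicates 11, 12, 19 and 37) at 0.0375 mg/kg. The other 3 mice (replicates 14, 16 and 33) received vehicle. Dosing in both groups began on day 15 after injection and went on 2 times a week for 3 weeks. All tumours grew under the skin of C57BL/6 mice, injected at 7 weeks of age and labelled 13 weeks old, from MTO cells of the genotype sgPrkci/Prkcz mixed with 30% Matrigel. Both groups therefore carry the edit of the atypical protein kinase C genes, and no unedited tumour was analysed here. The sources used here do not say whether the injected cells were a clone or a pool. Each tumour is a mixture of injected epithelial cells and host cells, so an S100 level cannot be assigned to a cell type, and fewer cells of a type cannot be told apart from less RNA per cell.

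S100 proteins are small calcium-binding proteins with a pair of EF-hand motifs, most of which work as dimers. On binding calcium they expose a surface that docks onto partners such as annexins and non-muscle myosin, and some are also secreted and act on cell-surface receptors. S100a14 and S100a16 are known mainly from epithelia, S100a4 from fibroblasts and leukocytes, and S100a1 from striated muscle. S100a6, S100a10 and S100a11 are expressed in many cell types. S100a10 departs from this scheme, since its EF hands no longer bind calcium and it sits constitutively in a complex with annexin A2.

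The epithelial part of the tumours was visible in Epcam, an epithelial adhesion molecule, which read 4188 to 5293 normalised read counts in PEGPH20 tumours and 5703 to 6398 in vehicle tumours. Of the intestinal markers, Vil1, a microvillus protein, read 376 to 495 in PEGPH20 tumours and 342 to 533 in vehicle tumours (the gene Usp37 on the opposite strand overlaps its exons), while Cdx1 was listed at 0 in all 7 tumours. A normalised read count is the value the authors deposited, namely reads after division by a size factor that is the same for every gene of a library. Recovered depth was 4582238 to 6703775 reads in the PEGPH20 libraries and 4204388 to 4304108 in the vehicle libraries. Some tumours held more of other tissues. Vehicle 16 had the largest sum over 14 skeletal muscle markers, 14669 against 182.6 to 3330.2 in PEGPH20 tumours and 326 to 849 in the other vehicle tumours. Vehicle 14 had the largest sum over 10 keratinocyte and skin markers, 1383 against 49.6 to 87.8 in PEGPH20 tumours and 73.5 and 103 in the other vehicle tumours. Vehicle 33 had the largest sum over 15 fibroblast markers, 67256 against 16769 to 36015 in PEGPH20 tumours and 27239 and 34110.2 in the other vehicle tumours.

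All 8 genes lie on chromosome 3 (GRCm38, GENCODE M21 gene models), where the S100 genes form a cluster. S100a1 (90511034 to 90514392, minus strand) and S100a13 (90514435 to 90524581, plus strand) are transcribed away from each other. S100a14 (90526856 to 90528837), S100a16 (90537254 to 90543151), S100a4 (90603771 to 90606045) and S100a6 (90612882 to 90624181) follow on the plus strand. S100a11 (93520488 to 93526287) and S100a10 (93555080 to 93564643) lie farther along on the same strand. Between S100a16 and S100a4 lie S100a3 and S100a2, which averaged 2.38 and 1.37 normalised read counts over the 7 tumours, and S100a5, between S100a4 and S100a6, averaged 0.222. Genes with very different levels thus stand side by side in the cluster. The S100a3 level is uncertain, because it shares exons on the same strand with the gene model Gm42674, which is listed at 0 in all 7 tumours.

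Upstream sequences are shown for the pair of genes with the lowest PEGPH20 values relative to vehicle, S100a6 and S100a11, and for the stretch that S100a1 and S100a13 share. They come from RefSeq (build GRCm38.p6), whose promoter table held 6 of the 8 genes, all but S100a10 and S100a14. The first pair are the 250 bases before the start site, chr3:90612644-90612893 and chr3:93520246-93520495, plus strand. The third is the 104 bases between the RefSeq start sites of S100a1 and S100a13, chr3:90514331-90514434, plus strand. The GENCODE model of S100a1 starts at 90514392, inside this stretch, so the 2 annotations differ there. Capitals mark exact matches on either strand to any of 4 motifs. The motif of AP-1 was written TGANTCA. That of the TATA box was written TATAAA. The GC box was written GGGCGG. The motif of the TEAD factors was written GGAATG.
S100a6: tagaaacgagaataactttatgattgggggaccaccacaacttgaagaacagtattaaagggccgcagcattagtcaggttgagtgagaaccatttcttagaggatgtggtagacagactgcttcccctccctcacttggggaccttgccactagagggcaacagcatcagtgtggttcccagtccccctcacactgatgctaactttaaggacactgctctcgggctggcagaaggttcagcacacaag
S100a11: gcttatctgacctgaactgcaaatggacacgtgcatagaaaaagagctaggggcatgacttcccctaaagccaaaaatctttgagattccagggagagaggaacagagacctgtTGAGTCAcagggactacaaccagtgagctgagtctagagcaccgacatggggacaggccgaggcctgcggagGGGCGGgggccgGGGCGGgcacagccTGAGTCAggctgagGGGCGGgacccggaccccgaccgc
S100a1 and S100a13: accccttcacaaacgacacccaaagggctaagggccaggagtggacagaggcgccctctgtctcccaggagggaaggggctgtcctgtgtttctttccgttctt
The S100a11 stretch held 2 AP-1 matches, 136 and 38 bases before the start, and 3 GC boxes, 64, 52 and 24 bases before it, with no overlap between the motifs. Of 32851 RefSeq promoters of the same length, 6.75% held an AP-1 match, 32.7% a GC box, 12.4% a TATA box and 12.6% a TEAD match. The S100a6 stretch and the one shared by S100a1 and S100a13 held none of the 4 motifs as spelled. S100a4 had a TATA box match 31 bases before its start, and 1 of the 2 start sites listed for S100a16 had an AP-1 match at 192 bases and a GC box at 30. These are matches of letters and say nothing of binding.

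The 8 genes differed widely in level. The 3′ kit reads the end of each transcript, so values were compared between genes without dividing by length. Ordered by group mean, both groups gave S100a6, S100a11, S100a10, S100a14, S100a16, S100a13, S100a1 and S100a4, from highest to lowest. S100a6 ranked between 9 and 12 among all genes in each tumour and made up 0.330% to 0.476% of the reads in PEGPH20 tumours and 0.486% to 0.527% in vehicle tumours. S100a4 stood at the other end, at rank 4716 to 6599. Within each group the ranges of S100a6, S100a11 and S100a10 were separate from one another. Those of S100a10 and S100a14 overlapped, and the range of S100a13 overlapped those of both S100a16 and S100a1, while S100a16 and S100a1 themselves were separate. S100a4 lay below all of them. S100a6 alone gave 64.4% to 68.3% of the summed value of the 8 genes in PEGPH20 tumours and 65.0% to 69.2% in vehicle tumours.

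**Figure D1:**
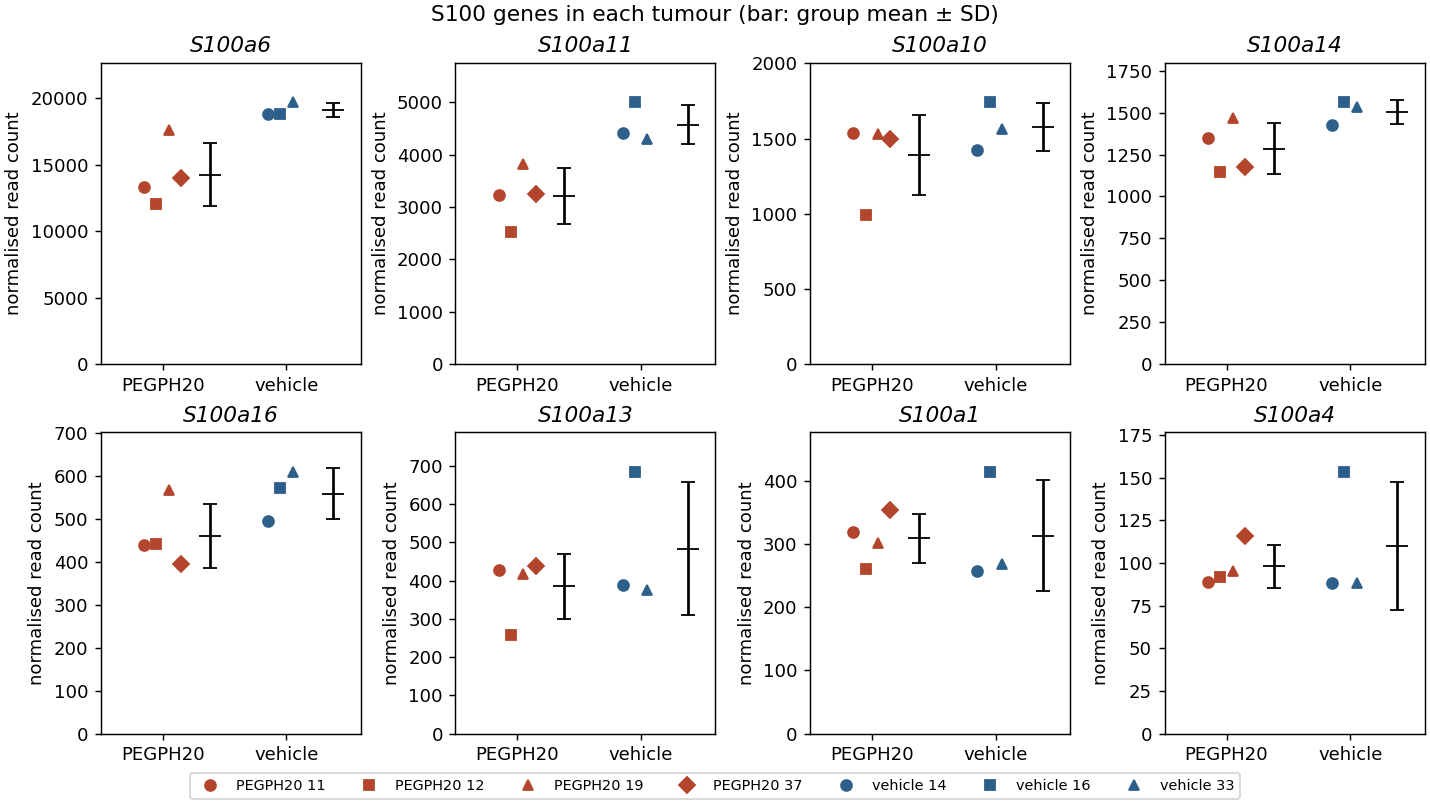
Normalised read counts of the 8 S100 genes, 1 point per tumour, PEGPH20 on the left and vehicle on the right of each panel, with the group mean ± SD beside the points. S100a6 and S100a11 are the panels in which all 4 PEGPH20 tumours lie below all 3 vehicle tumours.

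PEGPH20 tumours had less S100a6 and S100a11 RNA than vehicle tumours without overlap, at 74.6% and 70.1% of the vehicle mean, but no S100 gene passed the threshold of an adjusted p under 0.05 in limma. The means of the other 6 genes were 79.8% to 98.6% of the vehicle mean with PEGPH20, and their values overlapped between the groups. The test was limma on log2(value + 1), fitted to 17132 genes with Benjamini-Hochberg adjustment over all of them, and it called 0% of all genes. A log2 difference below is PEGPH20 minus vehicle on that scale, with its SE.

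S100a6, which binds the ubiquitin-ligase adaptor Cacybp, read 13334, 12070.5, 17637 and 13965 in PEGPH20 replicates 11, 12, 19 and 37, against 18832, 18776 and 19682 in vehicle replicates 14, 16 and 33. The 3 vehicle tumours lay close together and every PEGPH20 tumour lay below them, with replicate 19 the nearest. The means were 14252 ± 2391 with PEGPH20 (SD, n = 4) and 19096 ± 508 with vehicle (SD, n = 3), so that the PEGPH20 mean was 74.6% of the vehicle mean. The log2 difference was -0.44 ± 0.14 (95% interval -0.75 to -0.12), with an unadjusted p = 0.0123 and an adjusted p = 0.342 in limma. S100a6 differences kept to between -0.54 and -0.36 when any 1 tumour was left out.

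S100a11, a partner of annexin A1 that is abundant in epithelia, read 3223, 2514, 3818 and 3253 in the PEGPH20 tumours, in the same order, and 4409, 4996 and 4305 in the vehicle tumours. Again no PEGPH20 tumour reached the lowest vehicle tumour, and replicate 12 was the lowest and replicate 19 the highest of the PEGPH20 group. The means were 3202 ± 534 with PEGPH20 and 4570.1 ± 372 with vehicle, or 70.1% of the vehicle mean. The log2 difference was -0.53 ± 0.14 (95% interval -0.84 to -0.22), with an unadjusted p = 0.00379 and an adjusted p = 0.305 in limma. DESeq2 on the recovered reads called S100a11 lower (adjusted p = 0.0354) and did not call S100a6 (adjusted p = 0.0755), where it called 0.979% of 7864 genes, while edgeR's quasi-likelihood test gave adjusted p = 0.284 for S100a11 and 0.287 for S100a6 and called 0% of 13079 genes.

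The 2 genes without overlap stand against a background in which 4.45% of the tested genes had all PEGPH20 libraries below all vehicle libraries and 6.72% had all of them above. By limma's unadjusted p under 0.05, the same 2 genes were lower with PEGPH20, against 4.58% of all tested genes. With TMM, DESeq2 or upper-quartile scaling S100a14 also had no overlap, which made 3 genes, against 5.10% to 5.66% of all tested genes under those scalings. Of the 8 genes, 7 had a lower fitted value with PEGPH20, with a median log2 difference of -0.26, and among all tested genes 46.0% had a lower value and the median was 0.03.

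Epithelial and fibroblast markers were followed beside these 2 genes. The summed value of 14 epithelial markers was 16698 to 19257 with PEGPH20 and 18330 to 21583 with vehicle, with Cdx1 at 0. Epcam itself had no overlap (log2 difference -0.37, limma adjusted p = 0.313). Of the 13 tested, 5 had a higher and 8 a lower fitted value, with a median log2 difference of -0.04. An unadjusted p under 0.05 in limma was found for 6, against 12.2% of all tested genes, and 0 passed after adjustment. Among these 6, Epcam, Cldn4 and Elf3 were lower without overlap, against 4.45% of all tested genes. Cldn7 was higher without overlap, against 6.72%, and Cldn3 and Cdx2 were higher with overlap. Cdh1, the epithelial cadherin, differed by -0.03, and DESeq2 called Cldn7, a tight junction claudin, higher (adjusted p = 0.00715) and Elf3, an epithelial transcription factor, lower (adjusted p = 0.0214), so the epithelial markers did not all go one way. All 15 fibroblast markers had a lower fitted value with PEGPH20, with a median log2 difference of -0.83. Of these, 8 had an unadjusted p under 0.05 in limma, against 12.2% of all tested genes, 0 passed after adjustment, and Dcn, a matrix proteoglycan, had no overlap. Col1a2, a collagen chain, read 6399 ± 2873 with PEGPH20 (3401 to 9451) and 11551 ± 6699.5 with vehicle. Its values in vehicle replicates 14, 16 and 33 were 7975, 7399 and 19280. Vehicle 33, which also had the largest fibroblast sum, thus raised the vehicle mean, and the other vehicle tumours lay within the PEGPH20 range. The part of epithelial cells or fibroblasts in the S100a6 and S100a11 values was not tested. Without the 3 tumours richest in muscle transcripts (PEGPH20 11 and 37 and vehicle 16), S100a6 differed by -0.40 and S100a11 by -0.49.

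**Figure D2:**
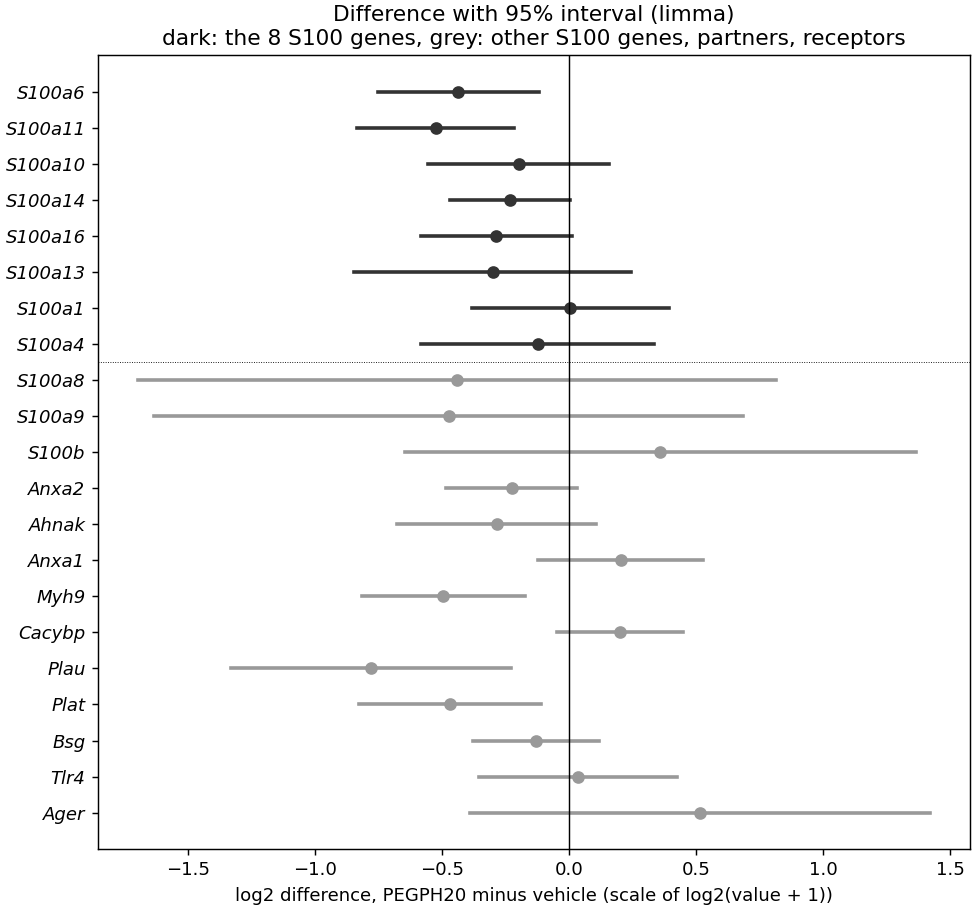
Log2 difference, PEGPH20 minus vehicle, for the 8 S100 genes (dark) and for other S100 genes, binding partners and receptors (grey), as points with 95% intervals from limma. Among the 8 genes the intervals of S100a6 (-0.75 to -0.12) and S100a11 (-0.84 to -0.22) lie below 0, before any adjustment for the number of genes.

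S100a14 and S100a16, neighbours in the cluster and both typical of epithelia, had intermediate values. S100a14 read 1351, 1144, 1469 and 1178 with PEGPH20 and 1424, 1561 and 1532 with vehicle. PEGPH20 replicate 19 lay above vehicle 14, so the groups overlapped at a single point. The means were 1286 ± 152 with PEGPH20 and 1506 ± 72.6 with vehicle, and the log2 difference was -0.23 ± 0.11 (95% interval -0.47 to 0.002, limma adjusted p = 0.415). S100a16 read 439, 441, 568 and 395 with PEGPH20 and 495, 573 and 609.9 with vehicle. Here too the overlap came from PEGPH20 replicate 19. The means were 461 ± 74.6 with PEGPH20 and 559 ± 58.5 with vehicle, and the log2 difference was -0.29 ± 0.13 (95% interval -0.58 to 0.01, limma adjusted p = 0.425). Without PEGPH20 replicate 19, 4 of the 8 genes had no overlap, S100a6, S100a11, S100a14 and S100a16, against 7.86% of all tested genes that were lower without overlap in the same libraries.

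S100a10, the light chain of the annexin A2 complex that recruits plasminogen to the cell surface, read 1538, 994, 1531 and 1498 with PEGPH20 and 1425, 1741 and 1563 with vehicle. PEGPH20 replicate 12 stood alone at the bottom, and the other 3 PEGPH20 tumours lay within the vehicle range. The means were 1390.3 ± 265 with PEGPH20 and 1576 ± 158 with vehicle, and the log2 difference was -0.20 ± 0.16 (95% interval -0.56 to 0.16, limma adjusted p = 0.619). Without PEGPH20 replicate 12 it was -0.05, and without vehicle replicate 16 it was -0.13.

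S100a13, which takes part in the release of fibroblast growth factor 1 from cells, read 428, 258, 418 and 438 with PEGPH20 and 389.7, 685 and 376 with vehicle. It had the widest spread of the 8 genes, 2.65 times between the lowest tumour, PEGPH20 12, and the highest, vehicle 16. The means were 386 ± 85.2 with PEGPH20 and 483 ± 174 with vehicle, and the log2 difference was -0.30 ± 0.24 (95% interval -0.85 to 0.25, limma adjusted p = 0.624). It was -0.02 without vehicle replicate 16, -0.12 without PEGPH20 replicate 12 and -0.45 without vehicle replicate 33.

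S100a1, a regulator of calcium handling in striated muscle, read 319, 261, 302 and 354 with PEGPH20 and 258, 414 and 268 with vehicle. Vehicle 16 was the highest tumour and the other 2 vehicle tumours were at the low end. The means were 309 ± 38.5 with PEGPH20 and 314 ± 87.6 with vehicle, and the log2 difference was 0.01 ± 0.17 (95% interval -0.38 to 0.39, limma adjusted p = 0.993). Its sign changed with the scaling, at -0.02 with TMM, -0.03 with DESeq2 size factors and -0.04 with upper-quartile scaling, and it was 0.22 without vehicle replicate 16. Vehicle 16 is also the tumour with the largest muscle sum, with the muscle actin Acta1 at 2062 against 359, 1.38, 1.66 and 119 in the PEGPH20 tumours. The 3 tumours with the largest muscle sums, PEGPH20 11, PEGPH20 37 and vehicle 16, were also the 3 highest for S100a1, at 319, 354 and 414. The order was not kept throughout. PEGPH20 19, with a muscle sum of 198, read 302, and vehicle 33, with a sum of 849, read 268. PEGPH20 37, with a sum of 1038, read above PEGPH20 11, with a sum of 3330. The part of muscle in the S100a1 values was not tested.

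S100a4, which binds non-muscle myosin IIA and is known for cell migration, was low throughout. It read 88.7, 91.6, 95.6 and 116 with PEGPH20 and 88.0, 153 and 88.5 with vehicle, from 101 to 173 reads per library. Vehicle 16 was again highest, and the other vehicle tumours were just below the lowest PEGPH20 tumour. The means were 98.0 ± 12.4 with PEGPH20 and 110.0 ± 37.6 with vehicle, and the log2 difference was -0.12 ± 0.20 (95% interval -0.58 to 0.34, limma adjusted p = 0.835). It turned to 0.14 without vehicle replicate 16, and to 0.08 without the 3 tumours richest in muscle transcripts. The level is uncertain, because S100a4 shares exons on the same strand with the gene model Gm42674, which is listed at 0 in all 7 tumours, and the sources used here do not say how reads shared by 2 genes were counted.

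The profiles of the 8 genes were also compared with one another. Likeness was the root mean square difference of the centred log2(value + 1) values over the 7 tumours, in log2 units, which is smaller for genes that go up and down together by the same amount. The smallest values were 0.10 for S100a14 and S100a16, 0.11 for S100a6 and S100a11, and 0.12 for S100a1 and S100a4. Next came 0.14 for S100a6 with S100a14 and with S100a16, and no cutoff for a close pair was set. S100a1 and S100a13, which have 104 bases between their RefSeq start sites, were less alike at 0.22. Their ratio was 0.724 to 1.01 in PEGPH20 tumours and 0.605 to 0.714 in vehicle tumours. The most unlike pair was S100a13 and S100a16 at 0.37. All 8 genes share the same libraries, size factors and tumour composition, so these are descriptions of 7 tumours.

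**Figure D3:**
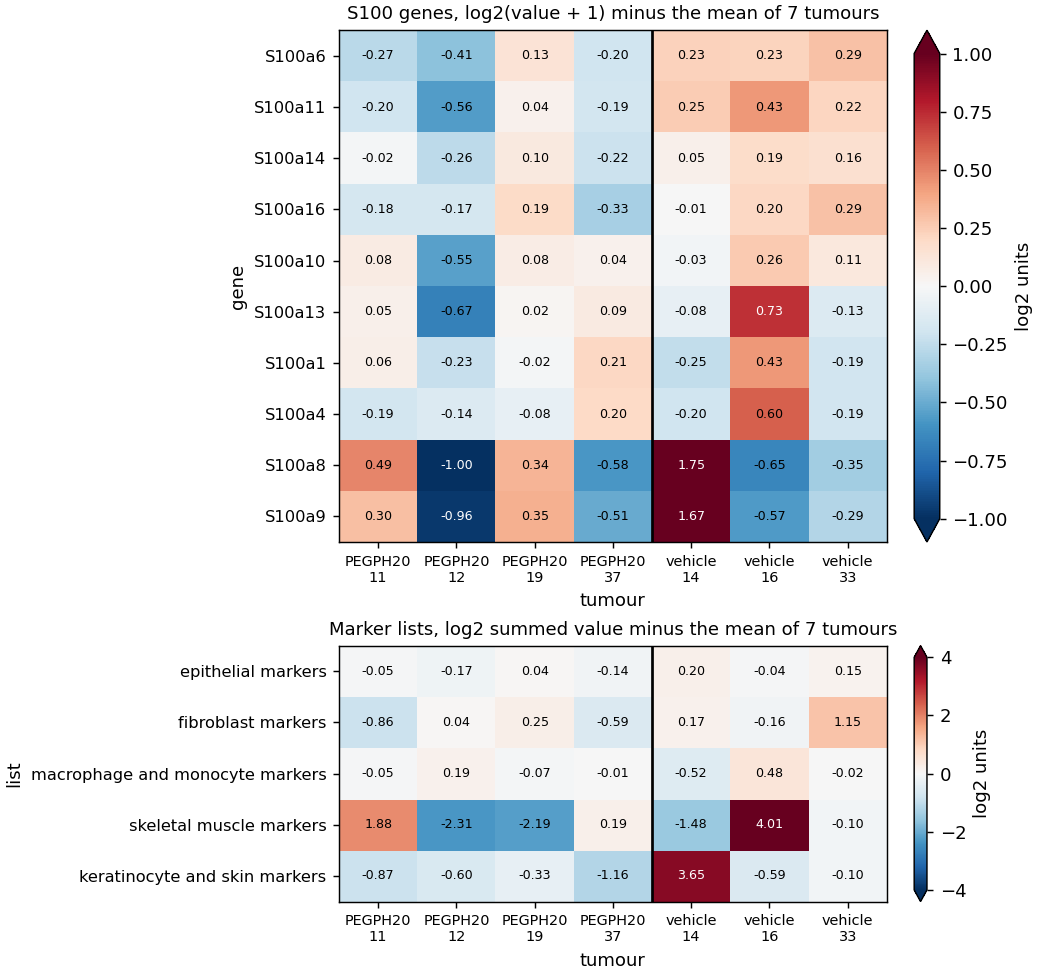
Centred log2 values by tumour, PEGPH20 on the left and vehicle on the right of the black line, for 10 S100 genes (top) and for the summed values of 5 marker lists (bottom, on a wider colour scale). S100a6, S100a11 and S100a14 are above their mean in all 3 vehicle tumours and also in PEGPH20 19. Vehicle 16 is the highest tumour for S100a13 (0.73), S100a4 (0.60), S100a1 (0.43), S100a11 (0.43), S100a10 (0.26) and S100a14 (0.19).

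Outside the family, the gene nearest to each profile was sought among 8116 named protein-coding genes with a mean of at least 50. It was Arhgef28 for S100a11 (0.08) and Tpra1 for S100a6 (0.07). It was Slc35a5 for S100a14 (0.03), Pip5k1c, a kinase that makes a membrane phosphoinositide, for S100a16 (0.07) and Pogz for S100a10 (0.07). Snrpf, a spliceosome protein, was nearest to S100a13 (0.09), Ercc6l2 to S100a1 (0.04) and Fam241a to S100a4 (0.07). Arhgef28 read 100.3, 84.1, 118 and 107 with PEGPH20 and 139, 139.7 and 136 with vehicle. It was also the second nearest gene to S100a6 (0.07). Because Arhgef28 was picked by its likeness to S100a11 in the same tumours, its lack of overlap is not a separate result. For S100a4 the second nearest gene, singled out after its values were seen, was the macrophage marker Cd68 (0.08), which read 94.5 to 117 with PEGPH20 and 91.5, 156 and 102 with vehicle. The summed value of 12 macrophage and monocyte markers was 3988 to 4760.3 in PEGPH20 tumours and 2918, 5823 and 4125 in vehicle replicates 14, 16 and 33, so it too was highest in vehicle 16. Of these markers, Adgre1, Cd68, Csf1r, Mrc1, C1qa, C1qb, C1qc and Ccr2 were highest in vehicle 16. Cd14, Fcgr1, Lyz2 and Ms4a7 were highest in other tumours. Fam241a and the third nearest gene to S100a4, Paics (0.09), were also highest in vehicle 16. The part of macrophages in the S100a4 values was not tested.

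Other S100 genes gave no called gene. Of 12 listed, 10 were in the table by symbol and 7 were tested, of which 0 passed in limma in either direction and 0 had an unadjusted p under 0.05. Of the 7, edgeR tested 4 and DESeq2 gave an adjusted p for 3, and each called 0. S100a8 and S100a9, the calprotectin pair of neutrophils and stressed keratinocytes, had wide spread. S100a8 read 236, 83.4, 212 and 112 with PEGPH20 and 568, 107 and 132 with vehicle, and S100a9 kept 0.751 to 0.902 of the S100a8 value in PEGPH20 tumours and 0.806 to 0.905 in vehicle tumours. Vehicle 14 was the highest for both, and it was also the tumour with the skin transcripts, where Krt14, a basal keratin, read 544 against 8.03 to 29.3 in PEGPH20 tumours and 13.8 and 50.3 in the other vehicle tumours. The summed value of the 8 neutrophil markers other than this pair was 126 to 206 in PEGPH20 tumours and 605, 281 and 185 in vehicle replicates 14, 16 and 33. Most of the sum in vehicle 14 was Mmp9, a matrix protease, at 497. Vehicle 14 was the highest tumour for 3 of the 8, Mmp9, Mmp8 and Cxcr2, and Csf3r, Ly6g and Retnlg were highest in other tumours, while the granule genes Camp and Ngp were at or near 0 in all 7. The part of either cell type in the S100a8 and S100a9 values was not tested. The log2 difference of S100a8 was -0.44 ± 0.56 (limma adjusted p = 0.773) and that of S100a9 was -0.47 ± 0.52 (limma adjusted p = 0.731). S100b, known from glia and Schwann cells, read 30.7, 29.6, 44.2 and 105 with PEGPH20 and 26.2, 59.7 and 27.8 with vehicle (0.36 ± 0.45, limma adjusted p = 0.769). S100a7a averaged 5.20 with PEGPH20 and 5.54 with vehicle, and S100pbp, which encodes a binding protein of S100P and not an S100 protein, read 139 to 168 with PEGPH20 and 142 to 198 with vehicle.

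Binding partners were measured alongside. Of 20 listed partners 17 were tested, 6 with higher and 11 with lower fitted values. Of these 0 passed in limma and 4 had an unadjusted p under 0.05, against 12.2% of all tested genes. Of the 17, edgeR tested 14 and DESeq2 gave an adjusted p for 12, and each called 0. The partners had a median log2 difference of -0.23 against 0.03 for all tested genes. Anxa2, the partner of S100a10, read 5433 ± 651 with PEGPH20 and 6328 ± 334 with vehicle, and an antisense gene model overlaps its exons. Its log2 difference was -0.23 ± 0.12 (limma adjusted p = 0.458). Ahnak, the giant scaffold that binds the S100a10 and annexin A2 complex, read 2743 ± 596 with PEGPH20 and 3310.0 ± 503 with vehicle. Anxa1, the partner of S100a11, had a fitted difference of the other sign, at 4099 ± 719.6 with PEGPH20 and 3535 ± 400.2 with vehicle (0.20 ± 0.15, limma adjusted p = 0.580). Cacybp, the partner of S100a6, also did, at 608 ± 50.7 with PEGPH20 and 530.0 ± 66.9 with vehicle (0.20 ± 0.11, limma adjusted p = 0.489).

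Myh9, the heavy chain of non-muscle myosin IIA bound by S100a4, read 1348, 1389.7, 1716 and 1253 with PEGPH20 and 1843, 1759.9 and 2455 with vehicle. These groups did not overlap, and the log2 difference was -0.50 ± 0.14 (limma adjusted p = 0.315). Its relative Myh10 read 44.2 ± 29.0 with PEGPH20 and 90.7 ± 36.0 with vehicle, and Anxa5, a phospholipid-binding annexin, 1220.3 ± 117 with PEGPH20 and 1457 ± 172 with vehicle, both with overlap. Atp2a2, the calcium pump of the endoplasmic reticulum, read 606 ± 32.1 with PEGPH20 and 519.7 ± 15.3 with vehicle. It was higher with PEGPH20 without overlap (0.22 ± 0.08, limma adjusted p = 0.374). Of the 17 tested partners, 1 (Myh9) was lower without overlap, against 4.45% of all tested genes. Atp2a2 was the 1 partner that was higher without overlap, against 6.72%. A gene model on the opposite strand overlaps its exons and had 8 reads over all libraries, against 5287 for Atp2a2. Fgf1, a growth factor released with S100a13, read 31.9 ± 6.46 with PEGPH20 and 23.2 ± 8.72 with vehicle.

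Receptors and plasminogen genes followed the same pattern of no calls. Of 10 listed, 9 were tested, 3 with higher and 6 with lower fitted values, 0 passed in limma and the median log2 difference was -0.13. An unadjusted p under 0.05 in limma was found for 3 of the 9, against 12.2% of all tested genes, and of the 9 edgeR tested 8 and DESeq2 gave an adjusted p for 6, with 0 called by each. Ager, the receptor RAGE, was near the limit of detection at 8.56 ± 3.31 with PEGPH20 and 5.88 ± 3.22 with vehicle. Tlr4, a receptor for extracellular S100 proteins, read 74.8 ± 7.80 with PEGPH20 and 73.8 ± 17.0 with vehicle, and Bsg, another such receptor, 1026 ± 109 with PEGPH20 and 1122 ± 108 with vehicle. The plasminogen activators had lower means, with Plau at 70.0 ± 19.8 with PEGPH20 and 120.4 ± 32.1 with vehicle (-0.78 ± 0.25, limma adjusted p = 0.337) and Plat at 1026 ± 224 with PEGPH20 and 1400.3 ± 127 with vehicle (-0.47 ± 0.16, limma adjusted p = 0.350). Serpinb2, a plasminogen activator inhibitor, read 8.86 ± 11.6 with PEGPH20 and 18.3 ± 24.4 with vehicle. Each of these groups overlapped in at least 1 tumour.

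**Figure D4:**
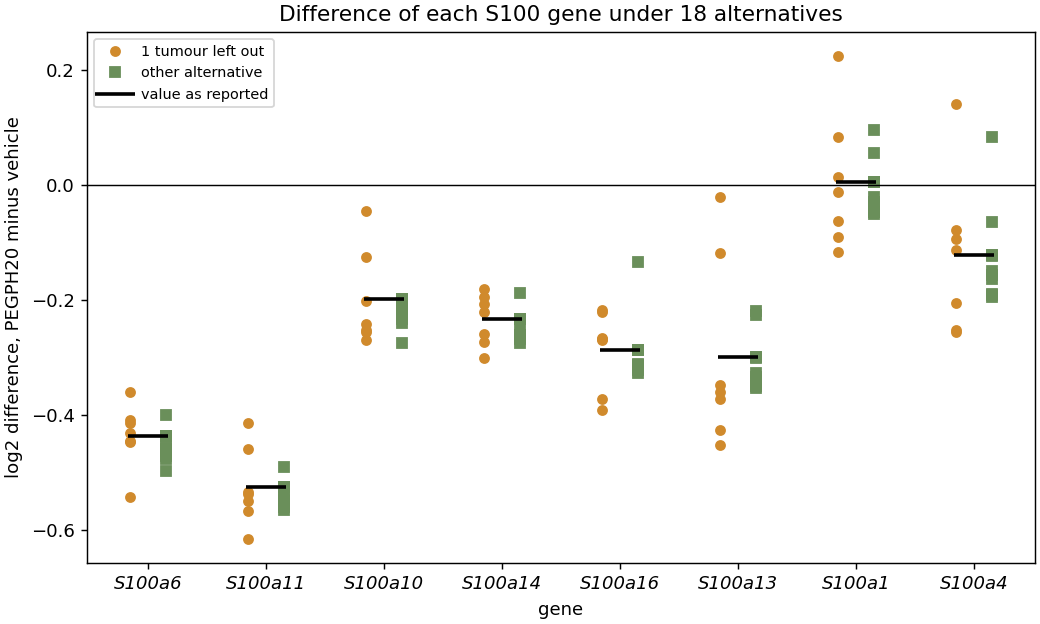
Log2 difference of each S100 gene, PEGPH20 minus vehicle, as reported (black bar), with 1 tumour left out (orange circles) and under the other alternatives (green squares). All values of S100a6 and S100a11 lie below -0.36, while S100a1 and S100a4 have values on both sides of 0.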

How the data were processed

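Libraries were made per the labels' protocols from 200 ng of RNA by the QuantSeq FWD method, which primes at the 3′ end, and read from a single end for 75 nt. Per the submitters' processing notes, reads were placed on GRCm38. The sources used here name no aligner, counter or scaling tool, and do not say whether the kit's optional molecular identifiers were used. The deposited values are a signal, read counts divided by 1 size factor per library by the authors: in each library 100% of the nonzero values came out whole when divided by the smallest one (tolerance 0.01), and whole reads were recovered from these steps. Symbols matched 47224 of 47643 gene identifiers.

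The test was limma 3.58.1 on log2(value + 1), its variance prior following the mean level. Treatment was the only term, and genes averaging at least 1 entered. The edgeR 4.0.16 quasi-likelihood test on the recovered reads called 0 genes and DESeq2 1.42.0 called 77. The fits were tested on simulated data. Libraries of 1 group differed beyond sampling noise (chi-square per degree of freedom 6.59 to 16.3). The p-values set each difference against the spread between these tumours, and limma draws its estimate of that spread toward a trend over all genes.

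The 8 genes and all lists were chosen with earlier results of these data known. Text names the 8 genes, other S100 genes with a mean of at least 5, set partners and receptors, up to 3 more per such list by smallest p, the leading markers, and the nearest profile of each gene. Alternatives changed the pseudocount, filter, scaling, test or threshold, or left out tumours. Of the genes this rule names, 1 of the receptor and plasminogen list is not reported here.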

Additional observations from a re-analysis of the deposited data

Results flagged for a closer look

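In PEGPH20 replicate 12, 2 genes stood apart from the other PEGPH20 tumours by more than Dixon's 95% critical value for 4 samples. S100a10 read 994 there, against 1498 to 1538 in the other PEGPH20 tumours, a gap of 0.926 of the group's range. S100a13 read 258, against 418 to 438, a gap of 0.884 of the range. In all, 13 genes were examined this way, the S100 genes with a mean of at least 5 and S100pbp, and chance flags about 1 in 20 groups.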

How the results depend on the processing

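S100a6, S100a10, S100a11, S100a13, S100a14 and S100a16 had a lower fitted value with PEGPH20 under all 18 alternatives run. S100a11 passed the threshold in DESeq2 (-0.55) and in no other setting, so 1 of the 8 genes was called there. S100a1, 0.005 as reported, changed sign with TMM (-0.0216), DESeq2 (-0.0295) and upper-quartile (-0.0354) scaling, in edgeR (-0.048, and -0.051 with DESeq2 size factors) and in DESeq2 (-0.047). With 1 tumour left out it ran from -0.12 to 0.22 and S100a4 from -0.26 to 0.14. S100a4 was 0.0833 without the 3 muscle-rich tumours, an alternative chosen after seeing the data. Over all genes the count of calls was 0 in limma, edgeR and voom with all tumours, 77 in DESeq2, and 0 to 3 with 1 tumour left out (3 without vehicle replicate 16). Genes of the 8 without overlap, all lower with PEGPH20 except S100a4 without vehicle replicate 16, numbered 2 to 5 with 1 tumour left out. The 5 came without vehicle replicate 14, and fewer tumours make separation easier: 9.08% of all tested genes were then lower without overlap. Without vehicle replicate 16, where S100a4 was higher without overlap, so were 19.05% of all tested genes, and 11.37% were lower. Without PEGPH20 replicate 11, 12 or 37 or vehicle replicate 33, 5.55% to 7.12% were lower without overlap. Of genes with an unadjusted p under 0.05, 62.3% were higher with PEGPH20 as reported, 50.4% with DESeq2 size factors and 48% in edgeR. The cause of these shifts was not tested. No paired analysis was possible because the groups share no replicate numbers. S100a4, with 101 to 173 reads per library, is the least precisely counted of the 8 genes.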
